A study of Mus musculus with 8 samples.

Results

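Cohesin is the ring-shaped complex that holds sister chromatids together and folds chromatin into loops. The 9 genes described here encode the paralogous subunits of that ring in the mouse. 4 of them (Rec8, Rad21l, Stag3 and Smc1b) belong to the meiotic form of the complex, and 5 (Rad21, Stag1, Stag2, Smc1a and Smc3) to the form that dividing somatic cells use. They were taken by gene symbol from a table of 55421 genes measured by RNA sequencing. All 9 were among the 20588 genes with enough counts to be tested. The question was how the meiotic and the mitotic subunits responded when cultured spermatogonia were moved into a medium that induces meiotic entry, and whether the response differed between cultures lacking Stra8 and cultures lacking Spo11.

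The libraries came from primary cultures of mouse spermatogonia, kept with N2 supplement on a feeder layer of mouse embryonic fibroblasts. The cultures were started from the testes of 6-day-old pups of C57BL/6XDBA/2 background. The labels give 10 ng/ml each of bFGF and GDNF for all 8 samples, while the study's supplement lists more GDNF in its normal medium. Both genotypes were knockouts: Stra8KO cultures lack the retinoic acid target that gates meiotic initiation, and SPO11KO (here Spo11KO) cultures lack the enzyme that makes the DNA breaks of meiotic recombination. Wild-type cultures were not analysed here. Each genotype was kept either in normal medium with vehicle (Veh) or for 2 days in nutrient restriction medium plus retinoic acid (NRRA). Per the study's supplement, nutrient restriction medium is a small part of normal medium in EBSS, a balanced salt solution. That would dilute bFGF and GDNF as well, which the labels do not show. Each of the 4 groups held 2 libraries, 8 in all, which the study's reporting summary describes as independent biological replicates. The sources used here do not say at which step the replicates of a group separated, so p-values measure the spread between these libraries. Where each genotype was grown as its own culture, the effect of the knockout and that of the culture cannot be told apart.

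The ring consists of a pair of SMC proteins (SMC3 with SMC1A or SMC1B) closed by an alpha-kleisin (RAD21, RAD21L or REC8), to which a STAG protein binds. In germ cells entering meiosis the kleisins REC8 and RAD21L, the STAG protein STAG3 and the SMC protein SMC1B join or replace their somatic counterparts, and these meiotic complexes form the chromosome axis on which homologs pair and recombine. REC8 also holds sister centromeres together until the second division. SMC3 has no meiotic paralog and serves both forms.

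The promoters of the 4 meiotic subunits are shown because these genes responded differently to the same medium. The RefSeq promoter windows (GRCm38, from 250 bases before to 50 bases after the annotated start) matched 7 of the 9 subunits by symbol, and Rad21 and Stag2 had no entry. In the sequences, written 5' to 3' on the strand of the gene, capitals mark any match on either strand to TTCCCGC (a site type bound by E2F factors), CACGTG (an E-box), CNCCTCA (a core of the sequence bound by STRA8) or a retinoic acid response element (a direct repeat of half-sites with 2 or 5 bases between them). The windows are chr14:55617916-55618215 on the plus strand for Rec8, chr2:151668484-151668783 on the minus strand for Rad21l, chr5:138280259-138280558 on the plus strand for Stag3 and chr15:85131908-85132207 on the minus strand for Smc1b.

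Rec8: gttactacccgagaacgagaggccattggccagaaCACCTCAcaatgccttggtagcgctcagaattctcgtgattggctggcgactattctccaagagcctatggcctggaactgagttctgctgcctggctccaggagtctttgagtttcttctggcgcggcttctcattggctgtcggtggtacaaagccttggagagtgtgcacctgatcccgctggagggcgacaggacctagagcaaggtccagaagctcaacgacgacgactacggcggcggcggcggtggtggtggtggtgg

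Rad21l: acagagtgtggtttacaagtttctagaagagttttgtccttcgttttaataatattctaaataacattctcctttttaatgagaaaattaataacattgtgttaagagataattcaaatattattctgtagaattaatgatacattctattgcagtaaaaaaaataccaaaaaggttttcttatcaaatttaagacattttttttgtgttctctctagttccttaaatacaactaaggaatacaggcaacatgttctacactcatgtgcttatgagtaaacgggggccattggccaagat

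Stag3: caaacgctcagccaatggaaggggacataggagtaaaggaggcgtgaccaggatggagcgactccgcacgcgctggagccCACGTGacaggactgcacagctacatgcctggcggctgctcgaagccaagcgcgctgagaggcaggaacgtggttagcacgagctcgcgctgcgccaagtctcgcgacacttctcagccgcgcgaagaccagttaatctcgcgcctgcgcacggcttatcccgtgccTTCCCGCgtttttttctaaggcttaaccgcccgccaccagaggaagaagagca

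Smc1b: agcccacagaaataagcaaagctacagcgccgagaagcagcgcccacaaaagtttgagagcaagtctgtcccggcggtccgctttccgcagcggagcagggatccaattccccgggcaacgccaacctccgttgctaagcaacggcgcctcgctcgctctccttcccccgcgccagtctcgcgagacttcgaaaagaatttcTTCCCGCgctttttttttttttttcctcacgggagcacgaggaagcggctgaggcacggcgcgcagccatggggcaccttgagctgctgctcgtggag

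The Rec8 window held 1 match to CNCCTCA, starting at position -215 from the start site, and none to the other 3 motifs marked. The Rad21l window held no match to any of the 4. Stag3 had 1 match to CACGTG at position -170 and 1 to TTCCCGC at position -3, and Smc1b had 1 match to TTCCCGC at position -48. Among the mitotic subunits with a window, Stag1 and Smc1a also held TTCCCGC (1 match each), and Smc3 held none of the 4 motifs. All positions are from the RefSeq start. The gene starts given below for Stag3 (chr5:138280240) and Stag1 (chr9:100597798) lie before their whole windows. The matches of Stag3 and Stag1 thus fall inside the genes as given there. Of all 32851 promoter windows of this length, 4.60% held TTCCCGC, 7.15% held CACGTG, 19.8% held CNCCTCA and 0.365% held such a direct repeat. CCAAT, a site of the factor NF-Y, was also searched and was found in 37.4% of all windows in 3 places in the Rec8 window and in 1 place each in the windows of Rad21l, Stag3, Smc1b, Stag1 and Smc1a; its matches overlapped none of the capitals in these 4 windows and are not marked.

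Library totals ran from 20960794 to 27038868 counts. The Stra8KO libraries had 2 and 0 counts of Stra8 with vehicle and 169 and 170 with NRRA, and the Spo11KO libraries 28 and 12 with vehicle and 12604 and 16191 with NRRA, so that Stra8 was lower under the Stra8KO label in both media. Counts of Spo11 were 32 and 31 with vehicle and 68 and 66 with NRRA for Stra8KO, and 72 and 75 with vehicle and 148 and 127 with NRRA for Spo11KO, so they were higher under the Spo11KO label and give no check of it. Germ cell RNA was present in every group: each of 8 pan-germ genes (Ddx4, Dazl, Mael, Piwil2, Tdrd1, Tdrd5, Tdrd9, Asz1) was detected. Together they made up 0.067 to 0.0673% of counts with vehicle and 0.078 to 0.0821% with NRRA in Stra8KO, and 0.147 to 0.151% and 0.176 to 0.181% in Spo11KO. The 16 fibroblast genes of the feeder list made up 2.51 to 2.58%, 4.08 to 4.12%, 1.44% and 2.39 to 2.49% of counts in the same order. Sertoli cell genes stayed at or under 0.0315% and macrophage genes at or under 0.0059% of counts in each library. The Sertoli sum came mostly from Inhbb, at up to 6440 counts in Stra8KO Veh. Amh, Gata4, Cldn11 and Rhox5 had at most 20 counts in any library, so the sum is a poor measure of Sertoli cells. In such bulk libraries fewer cells of a type and less RNA per cell cannot be told apart.

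NRRA raised part of the meiotic set and lowered part of the mitotic set. In Stra8KO cultures 2 of the 4 meiotic subunits rose (Rec8 and Stag3) and none fell, while 4 of the 5 mitotic subunits fell (Rad21, Stag1, Smc1a and Smc3) and none rose. In Spo11KO cultures 3 of 4 meiotic subunits rose (Rec8, Stag3 and Smc1b) and 2 of 5 mitotic subunits fell (Smc1a and Smc3). Calls are at a Benjamini-Hochberg adjusted p under 0.05, over all tested genes, in the quasi-likelihood test of edgeR. As background, 21.6% of all tested genes were called higher and 20.2% lower in Stra8KO, and 24.5% higher and 25.5% lower in Spo11KO. The median log2 fold change was 0.37 for the meiotic and -0.15 for the mitotic subunits in Stra8KO, against 0.01 for all tested genes, and 0.94 and -0.08 in Spo11KO, again against 0.01. Scaling the libraries to the summed counts of the 8 pan-germ genes instead shifted the median of all genes by -0.25 in Stra8KO and -0.17 in Spo11KO. Those 8 genes themselves moved under NRRA with TMM: 5 were called higher and none lower in Stra8KO (range 0.07 to 0.67), and 5 higher and 2 lower in Spo11KO (range -0.34 to 0.65), so they are no fixed scale for germ cell RNA.

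**Figure D1:**
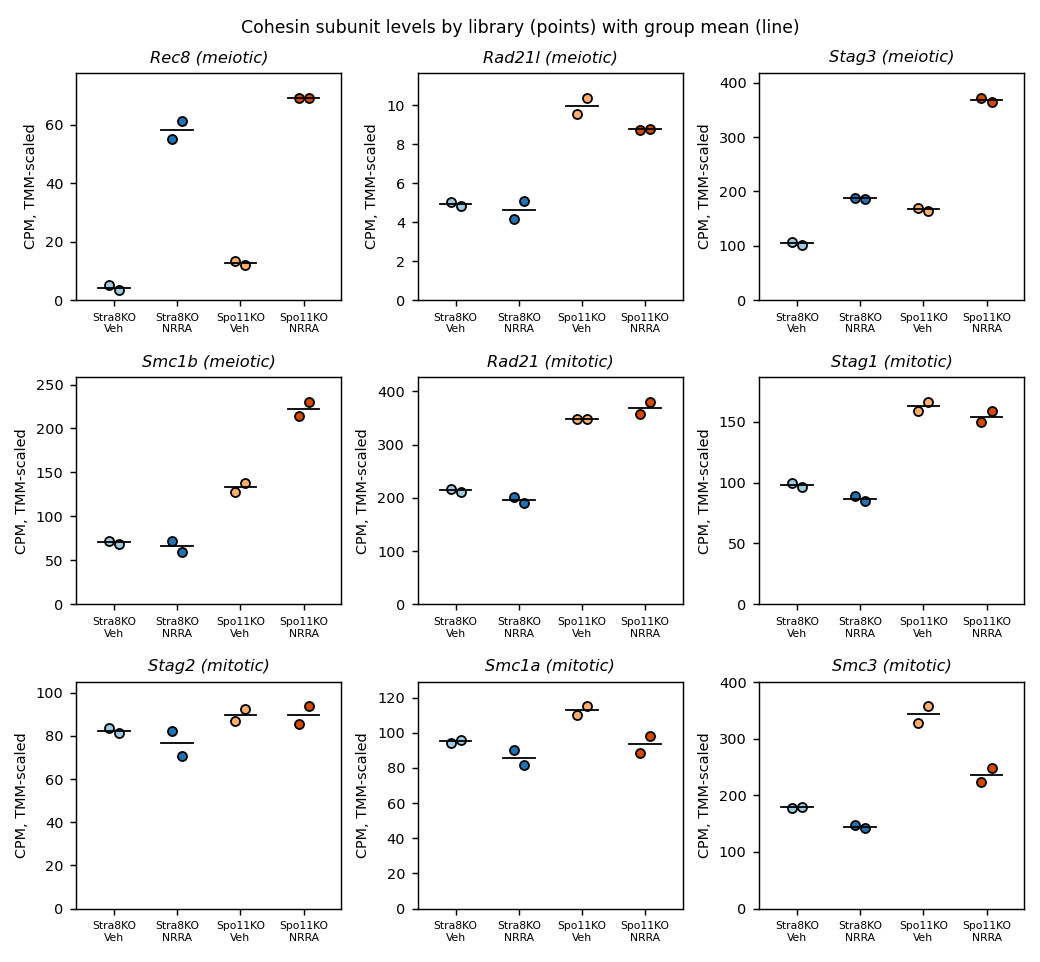
Level of each subunit in each of the 8 libraries, in CPM, counts scaled to library size by TMM (vertical axes, each starting at 0), by genotype and medium; points are libraries and lines the means of 2. Rec8 reached 13.2 at most in Veh libraries and 55.2 at least in NRRA libraries, whereas Rad21l with Veh and NRRA overlapped in Stra8KO.

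Rec8 (ENSMUSG00000002324, chr14:55618037-55625395, plus strand), the kleisin that persists at centromeres through the first meiotic division, showed the largest response of the 9 in both genotypes. In Stra8KO it stood at 5.14 and 3.37 CPM, counts scaled to library size by TMM, with vehicle and at 55.2 and 61.3 with NRRA. In Spo11KO it stood at 13.2 and 11.97 with vehicle and at 69.3 in both NRRA libraries. All 4 NRRA libraries were thus above all 4 Veh libraries, in each genotype. The rise was 13.5-fold in Stra8KO (log2 fold change 3.76, SE 0.103, edgeR adjusted p = 1.56e-32) and 5.50-fold in Spo11KO (2.46, SE 0.08, adjusted p = 1.25e-29). The rise was larger in Stra8KO by 1.30 on the log2 scale (SE 0.148, adjusted p = 1.1e-09 for the interaction). Stra8 itself was at no more than 170 counts in any Stra8KO library. Its part in the rise of Rec8 was not tested. The mean was 4.26 ± 1.25 CPM (SD, n = 2) in Stra8KO and 12.6 ± 0.889 in Spo11KO with vehicle, and 58.2 ± 4.33 and 69.3 ± 0.0218 with NRRA. How this difference divides between the media depends on the scale: Stra8KO against Spo11KO was -1.55 with vehicle and -0.25 with NRRA with TMM, and -0.51 and 0.70 with pan-germ counts.

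Rad21l (ENSMUSG00000074704, chr2:151645404-151668533, minus strand), a kleisin of early meiotic prophase, did not pass the test under NRRA in either genotype. It was measured at 5.05 and 4.83 CPM with vehicle against 4.15 and 5.08 with NRRA in Stra8KO, and at 9.56 and 10.4 against 8.72 and 8.80 in Spo11KO. The Stra8KO libraries overlapped between the media, and the Spo11KO NRRA libraries were both below the Spo11KO Veh libraries. The log2 fold change was -0.10 in Stra8KO (95% interval -0.43 to 0.23) and -0.19 in Spo11KO (-0.44 to 0.06), from 86 to 258 counts a library. Those intervals exclude a rise of the size seen for Stag3. Under pan-germ scaling the Spo11KO value was -0.35 and passed the test (adjusted p = 0.0233), and the Stra8KO value was -0.35 without passing (adjusted p = 0.0771).

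Rad21 (ENSMUSG00000022314, chr15:51962240-51991747, minus strand), the somatic kleisin cleaved at anaphase, was the most abundant of the 9 per length in every group, at 50.6 ± 1.06 CPM per kilobase of exon (RPKM, SD, n = 2) in Stra8KO Veh and 82.2 ± 0.102 in Spo11KO Veh. It stood at 217 and 211 CPM with vehicle and at 201 and 190 with NRRA in Stra8KO, and at 348 in both vehicle libraries and 358 and 381 with NRRA in Spo11KO. The media did not overlap in either genotype, in opposite directions. The log2 fold change was -0.13 in Stra8KO (SE 0.0406, adjusted p = 0.00758), a call that was lost without Stra8KO Veh replicate 1 (-0.11) or without Stra8KO NRRA replicate 2 (-0.09). In Spo11KO it was 0.09 (95% interval 0.01 to 0.16, adjusted p = 0.0592); this passed with total counts as the scale (0.18), without a filter on low counts (0.13), with a filter at an average of 10 counts (0.09) or without Spo11KO NRRA replicate 1 (0.12), and was -0.08 under pan-germ scaling. The difference between the genotypes, -0.22 (SE 0.0558), passed the interaction test (adjusted p = 0.00248).

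Among the STAG subunits, Stag3 rose in both genotypes while Stag1 and Stag2 did not. Stag3 (ENSMUSG00000036928, chr5:138280240-138312393, plus strand) encodes the STAG protein of the meiotic complexes. It stood at 108 and 102 CPM with vehicle and 189 and 187 with NRRA in Stra8KO, and at 170 and 164 with vehicle and 373 and 365 with NRRA in Spo11KO. The ranges of the 2 media did not overlap in either genotype. Stag3 rose 1.79-fold in Stra8KO (log2 fold change 0.84, SE 0.0425, adjusted p = 1.18e-22) and 2.21-fold in Spo11KO (1.14, SE 0.0395, adjusted p = 2e-29). The rise was smaller in Stra8KO by 0.30 on the log2 scale (SE 0.0579, interaction adjusted p = 4.55e-05).

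Stag1 (ENSMUSG00000037286, chr9:100597798-100959375, plus strand), the somatic paralog linked to telomere cohesion, stood at 99.8 and 96.4 CPM with vehicle against 89.2 and 84.6 with NRRA in Stra8KO, and at 159 and 166 against 150 and 159 in Spo11KO. Its NRRA libraries lay below the vehicle libraries in both genotypes. It fell by 0.18 on the log2 scale in Stra8KO (SE 0.0486, adjusted p = 0.00269), a call lost without Stra8KO Veh replicate 1 or Stra8KO NRRA replicate 2, and was -0.08 in Spo11KO (95% interval -0.17 to 0.01, adjusted p = 0.142). Stag2 (ENSMUSG00000025862, chrX:42149317-42277185, plus strand), the other somatic paralog, stood at 83.6 and 81.3 CPM with vehicle against 82.5 and 70.6 with NRRA in Stra8KO, and at 87.0 and 92.5 against 85.7 and 93.9 in Spo11KO. Its libraries overlapped between the media in both genotypes. Its log2 fold change was -0.11 (-0.23 to 0.01) in Stra8KO and 0.00 (-0.11 to 0.12) in Spo11KO, and neither passed the test with TMM. Under pan-germ scaling Stag2 was called lower in both, at -0.37 (edgeR adjusted p = 5.46e-06) and -0.16 (adjusted p = 0.017). Without Stra8KO NRRA replicate 1 its Stra8KO value was -0.22. Annotated pseudogenes or transcripts of unassigned type overlap Stag1, Stag2, Smc1a and Smc1b on the genome, and reads shared with them may have been counted differently.

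Smc1b (ENSMUSG00000022432, chr15:85064689-85131964, minus strand), the meiotic SMC1, rose in Spo11KO and was not called in Stra8KO, and the difference passed the interaction test. In Stra8KO it stood at 72.6 and 68.3 CPM with vehicle and at 71.5 and 60.05 with NRRA, ranges that overlapped. In Spo11KO it stood at 127.8 and 138.5 with vehicle and at 214.5 and 230 with NRRA, with no overlap. The rise in Spo11KO was 1.67-fold (log2 fold change 0.74, SE 0.0573, adjusted p = 1.65e-10), while the value in Stra8KO was -0.10 (95% interval -0.24 to 0.04, adjusted p = 0.254). The difference between these effects was -0.84 (SE 0.0888, interaction adjusted p = 1.2e-07). Without Stra8KO NRRA replicate 1 the Stra8KO value was -0.23 and passed the test (adjusted p = 0.00429), without Stra8KO NRRA replicate 2 it was 0.02, and under pan-germ scaling it was -0.36 (adjusted p = 1.17e-05).

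Smc1a (ENSMUSG00000041133, chrX:152016428-152062694, plus strand), the somatic SMC1, and Smc3 (ENSMUSG00000024974, chr19:53600398-53645833, plus strand), the partner of both SMC1 proteins, fell under NRRA in both genotypes. Smc1a stood at 94.4 and 96.1 CPM with vehicle and 90.3 and 81.65 with NRRA in Stra8KO, and at 110.2 and 115 with vehicle and 88.3 and 98.4 with NRRA in Spo11KO. It fell by 0.27 on the log2 scale in Spo11KO (SE 0.0508, adjusted p = 1.3e-05) and by 0.15 in Stra8KO (SE 0.0535, adjusted p = 0.0219), the latter being lost without either Stra8KO Veh library (-0.16 without replicate 1, -0.14 without replicate 2) and without Stra8KO NRRA replicate 2 (-0.08). Smc3 stood at 178 and 179 CPM with vehicle against 148 and 142 with NRRA in Stra8KO, and at 328 and 358 against 223 and 248.6 in Spo11KO. For both genes all NRRA libraries were below the Veh libraries of the same genotype. Smc3 fell by 0.30 on the log2 scale in Stra8KO (SE 0.047, adjusted p = 7.54e-07) and by 0.54 in Spo11KO (SE 0.0438, adjusted p = 5.9e-14). The fall was larger in Spo11KO by 0.24 (SE 0.0642, interaction adjusted p = 0.0047), which did not pass with total counts (0.14), under pan-germ scaling (0.15), in DESeq2 (0.20) or without Spo11KO NRRA replicate 1 (0.16).

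**Figure D2:**
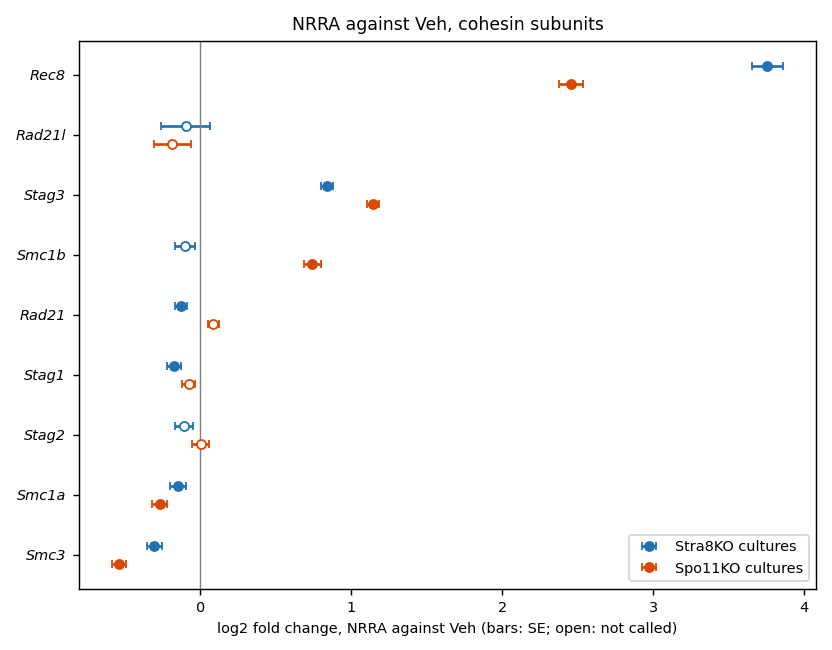
Log2 fold change of each subunit under NRRA against Veh (horizontal axis) in Stra8KO and Spo11KO cultures, with SE bars; filled points passed edgeR's test at an adjusted p under 0.05 and open points did not. Rec8 (3.76 and 2.46) and Stag3 (0.84 and 1.14) rose in both, and Smc1b (-0.10 and 0.74) in Spo11KO.

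The difference between the genotypes in the NRRA effect was called for 5 of the 9 subunits: higher in Stra8KO for Rec8 and Smc3 and lower for Stag3, Smc1b and Rad21. Over all tested genes 14.8% were called higher and 10.3% lower in this interaction. The 4 calls other than Smc3 also held with total counts, with DESeq2 size factors, under pan-germ scaling and in DESeq2's own test. Under pan-germ scaling these 4 differences were 1.21 for Rec8, -0.39 for Stag3, -0.93 for Smc1b and -0.31 for Rad21. For Rad21l (0.09, 95% interval -0.32 to 0.50), Stag1 (-0.10, -0.23 to 0.03), Stag2 (-0.11, -0.28 to 0.05) and Smc1a (0.12, -0.03 to 0.27) the interaction did not pass, but with total counts as the scale Stag1 (-0.19, adjusted p = 0.0183) and Stag2 (-0.20, adjusted p = 0.0478) did, as did Stag2 without Stra8KO NRRA replicate 1 (-0.23) and Smc1a without Spo11KO NRRA replicate 2 (0.21). The 9 genes of undifferentiated spermatogonia also moved apart between the genotypes, all 9 being called higher in this interaction with TMM: their summed share of counts was 0.0588% with vehicle and 0.0722% with NRRA in Stra8KO, and 0.141% and 0.0628% in Spo11KO. Their part in the members' differences was not tested.

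Under pan-germ scaling of the NRRA comparisons Rec8 (3.505 in Stra8KO, 2.29 in Spo11KO) and Stag3 (0.58 and 0.98) were still called higher in both genotypes, and Smc1b (0.58) in Spo11KO. Smc3 (-0.56 and -0.71) and Smc1a (-0.40 and -0.44) were still called lower in both. Under this scaling Stag1 (-0.43 and -0.24) and Stag2 (-0.37 and -0.16) were called lower in both as well. Rad21 (-0.39) and Smc1b (-0.36) were called lower in Stra8KO, and Rad21l (-0.35) in Spo11KO. The NRRA libraries held a higher share of fibroblast counts than the Veh libraries of their genotype (4.1% against 2.54% on average in Stra8KO and 2.44% against 1.44% in Spo11KO), and 10 proliferation genes together held a lower one (0.078% against 0.093%, and 0.187% against 0.211%). Of the 16 fibroblast genes, 11 were called higher and 4 lower in Stra8KO and 11 higher and 5 lower in Spo11KO, and of the 10 proliferation genes 6 and 9 were called lower and none higher. Their part in the changes of the subunits was not tested.

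Within each subunit family, the share of counts per kilobase of exon taken by the meiotic paralog does not depend on how libraries are scaled. It can still move with the mix of cells in these bulk libraries, whose fibroblast share of counts differed between the groups. The part of that mix in the shares was not tested. In Stra8KO Rec8 took 3.12 and 2.13% of the 3 alpha-kleisins with vehicle and 27.3 and 30.3% with NRRA. In Spo11KO it took 4.87 and 4.41% with vehicle and 20.8 and 19.9% with NRRA. The NRRA libraries lay above the vehicle libraries in both genotypes. Rad21l took a smaller share under NRRA, with means of 5.42% in Veh and 4.04% in NRRA in Stra8KO and of 6.5% and 4.55% in Spo11KO. Rad21 thus remained the main kleisin transcript in all 8 libraries.

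Stag3 took 50.3 and 49.8% of the 3 STAG transcripts with vehicle against 65.3 and 67.4% with NRRA in Stra8KO, and 55.2 and 53.1% against 73.8 and 71.9% in Spo11KO. It was higher under NRRA in both libraries of each genotype. Smc1b took 52.3 and 50.3% of the SMC1 pair with vehicle against 53 and 51.2% with NRRA in Stra8KO, and 62.3 and 63.1% against 77.6 and 76.9% in Spo11KO. Its Stra8KO libraries overlapped between the media, and the Spo11KO libraries did not. The levels of these shares depend on the lengths used. Before division by length, mean Smc1b was below mean Smc1a in Stra8KO, at 70.5 against 95.2 CPM in Veh and 65.8 against 86 under NRRA. Stag1 has 11781 bases of exon but 3774 of coding sequence, against 5733 and 3720 for Stag3, so the Stag3 share also depends on that choice.

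Averaged over the genotypes, NRRA moved the share by 20.9 percentage points for Rec8, -1.66 for Rad21l, 17.5 for Stag3 and 7.67 for Smc1b. The 2-sided exact permutation test, with media exchanged within genotype, gave p = 0.0556 for the first 3, the smallest that 36 arrangements allow, and p = 0.111 for Smc1b. Adjusted over the 8 tests of this family, these were 0.0741 and 0.127, so the design could not reach 0.05. In the same test between genotypes within medium, Stra8KO minus Spo11KO, the shares differed by -0.798 points for Rad21l, -5.34 for Stag3 and -18.3 for Smc1b (exact permutation p = 0.0556 each, adjusted 0.0741) and by 3.23 for Rec8 (p = 0.333). The Rec8 average joins opposite directions: its share was lower in Stra8KO in Veh (-2.01 points) and higher under NRRA (8.47 points), without overlap in either medium.

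**Figure D3:**
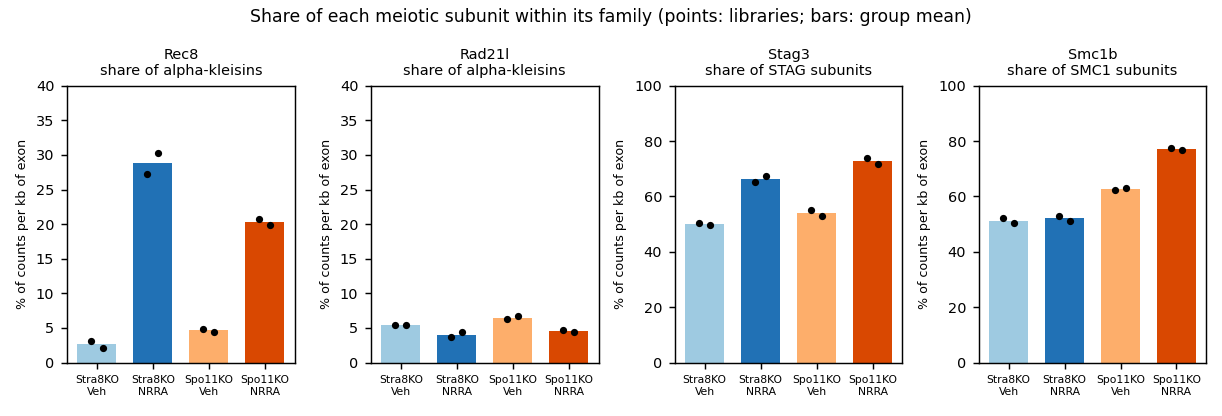
Share of each meiotic subunit in the counts per kilobase of exon of its family (vertical axes in percent, to 40 for the kleisins and to 100 for the others); bars are means of 2 libraries and points the libraries. Rec8 went from 2.63 to 28.8% in Stra8KO and from 4.64 to 20.3% in Spo11KO, and Smc1b from 51.3 to 52.1% and from 62.7 to 77.3%.

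Summed per length, the 4 meiotic subunits stood at 41.5 and 38.8 RPKM with vehicle and 71.9 and 71.3 with NRRA in Stra8KO, and at 71.5 and 73.2 with vehicle and 147 and 150 with NRRA in Spo11KO. The 5 mitotic subunits stood at 118 ± 1.13 and 104 ± 4.84 RPKM (mean ± SD, n = 2) in Stra8KO, and at 188 ± 5.21 and 170 ± 9.61 in Spo11KO. The meiotic sum was higher and the mitotic sum lower in both NRRA libraries of each genotype. In Spo11KO NRRA the levels per length ran from Rad21 (87.2 ± 3.83 RPKM) through Stag3 (64.4 ± 0.98), Smc1b (55 ± 2.78), Smc3 (42.5 ± 3.28), Rec8 (23.6 ± 0.00742), Smc1a (16.2 ± 1.24), Stag1 (13.1 ± 0.562) and Stag2 (10.9 ± 0.703) to Rad21l (5.28 ± 0.0349). In Stra8KO Veh the order was Rad21 (50.6 ± 1.06), Smc3 (32.2 ± 0.125), Stag3 (18.3 ± 0.658), Smc1b (17.4 ± 0.744), Smc1a (16.5 ± 0.216), Stag2 (9.97 ± 0.202), Stag1 (8.33 ± 0.207), Rad21l (2.98 ± 0.0937) and Rec8 (1.45 ± 0.426). Stag3, Smc1b and Smc1a lay close together there, Stag3 and Smc1b differing by less than the sum of their SDs. By exon length Rec8 was thus the least abundant of the 9 in Stra8KO Veh, while in Spo11KO NRRA it stood between Smc3 and Smc1a. Other places in these orders can change with another length, which the SDs do not cover. In Stra8KO Veh, Stag1 had 98.1 CPM and Smc1b 70.5, with near-equal coding lengths of 3774 and 3744 bases but 11781 and 4047 bases of exon.

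The second question was how the genotypes differed within a medium. Relative to all genes, the subunits were lower in Stra8KO than in the libraries labelled Spo11KO: all 4 meiotic and 4 of 5 mitotic subunits in Veh, and all 9 under NRRA, but scaled to pan-germ counts instead, 5 of the 9 were called higher and 1 lower in Veh, and 5 higher and 1 lower under NRRA. As background, 31.6% of all tested genes were called higher and 30.7% lower in Stra8KO in Veh, and 35.0% and 28.9% under NRRA. Pan-germ scaling shifted the median of all genes by 1.04 in Veh and 0.95 under NRRA, and with it 98.1% and 96.1% of the called genes were higher in Stra8KO, against 50.7% and 54.8% with TMM. Total counts shifted that median by -0.11 and -0.21. The pan-germ share of counts was 0.0672% against 0.149% in Veh and 0.08% against 0.178% under NRRA, Stra8KO against Spo11KO, and the fibroblast share 2.54% against 1.44% and 4.1% against 2.44%. All 8 pan-germ genes were called lower and all 16 fibroblast genes higher in Stra8KO in both media. Their part in the result was not tested.

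In Veh, with TMM and pan-germ scaling given in that order, the log2 difference was -1.55 and -0.51 for Rec8, the only subunit called lower in Stra8KO with both. It was -1.01 and 0.03 for Rad21l, -0.67 and 0.37 for Stag3, and -0.92 and 0.12 for Smc1b. For the mitotic subunits it was -0.70 and 0.34 for Rad21, -0.73 and 0.31 for Stag1, -0.12 and 0.92 for Stag2, -0.24 and 0.79 for Smc1a, and -0.94 and 0.10 for Smc3. With pan-germ scaling the calls higher in Stra8KO were Stag3, Rad21, Stag1, Stag2 and Smc1a. Of the TMM values, that of Stag2 did not pass (95% interval -0.24 to -0.0045, adjusted p = 0.0658), and it passed in 7 of the alternatives, among them total counts (-0.23).

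Under NRRA, Smc1b was the only subunit called lower in Stra8KO with both scalings (-1.76 with TMM, SE 0.062, adjusted p = 3.44e-17, and -0.81 with pan-germ counts, adjusted p = 6.75e-14). Per 1000 pan-germ counts its NRRA libraries stood at 82.1 and 72.8 in Stra8KO and at 134 and 138 in Spo11KO, whereas its vehicle libraries stood at 102 and 96.2 against 89.2 and 93.3. Rec8 was -0.25 with TMM (SE 0.0652, adjusted p = 0.000848), a call lost without Stra8KO NRRA replicate 1 (-0.18, adjusted p = 0.0536), and 0.70 with pan-germ counts (adjusted p = 6.89e-09). Stag3 was -0.97 with TMM and -0.03 with pan-germ counts. Rad21l was -0.92 and 0.03. For the mitotic subunits the values with TMM and pan-germ counts were -0.92 and 0.03 for Rad21, -0.83 and 0.12 for Stag1, -0.23 and 0.72 for Stag2, -0.12 and 0.83 for Smc1a, and -0.71 and 0.24 for Smc3. The TMM call of Smc1a (adjusted p = 0.0404) came with overlapping libraries and was lost without either Stra8KO Veh library, without Stra8KO NRRA replicate 2, without Spo11KO NRRA replicate 2 and in DESeq2, and that of Stag2 was lost without Stra8KO NRRA replicate 2 (-0.12).

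**Figure D4:**
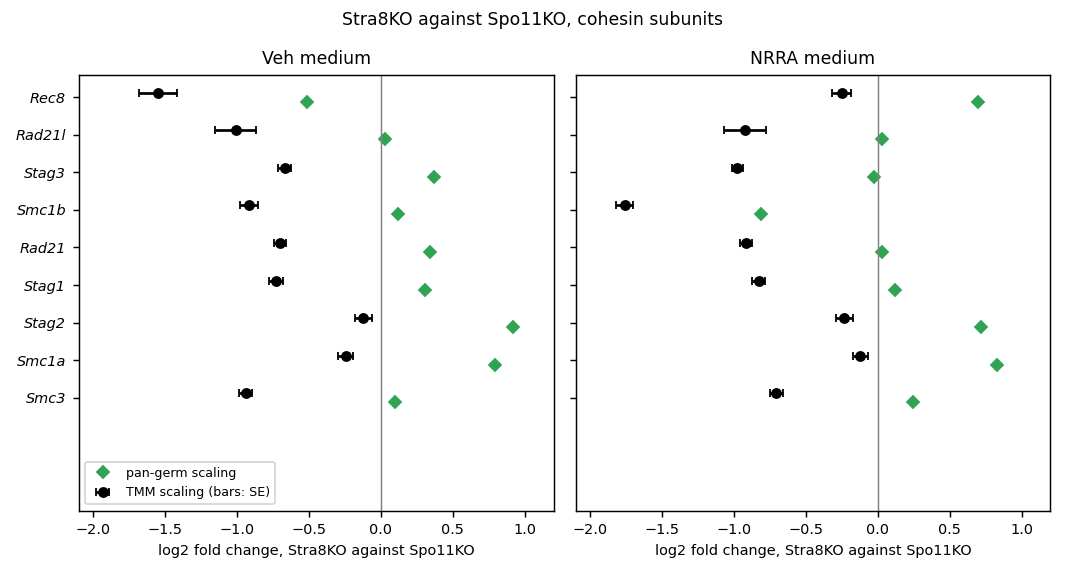
Log2 difference of each subunit between Stra8KO and Spo11KO cultures (horizontal axes) in Veh and in NRRA, with libraries scaled by TMM (circles, SE bars) or by the summed counts of 8 pan-germ genes (diamonds, no error drawn). With TMM all 9 values lie below 0 in both media, and with pan-germ counts 8 of 9 in Veh and 7 of 9 under NRRA lie above 0.

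The genes that load, release, acetylate, cleave and protect cohesin give the setting of these changes. Of 18 regulators 17 were tested (Sgo2b was not). In Stra8KO NRRA raised 1 of the 17, Hdac8, and lowered 6, and in Spo11KO it raised 2, Pttg1 and Esco2, and lowered 8, where 21.6% of all tested genes were called higher and 20.2% lower in Stra8KO and 24.5% and 25.5% in Spo11KO. The medians were -0.05 and -0.10 on the log2 scale. With pan-germ counts none of the 17 was called higher, and 13 were called lower in Stra8KO and 9 in Spo11KO. That scaling shifted the median of all genes by -0.25 and -0.17. Of all calls 21.2% and 29.2% were then higher, against 51.7% and 49.0% with TMM. With total counts 4 of the 17 were called higher and 6 lower in Spo11KO, where 61.7% of all calls were higher.

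Nipbl, which loads cohesin with MAU2, fell by 0.17 on the log2 scale in Stra8KO (adjusted p = 0.00166) and by 0.25 in Spo11KO (adjusted p = 3.23e-06), while Mau2 was not called in either. Of the factors that release cohesin or bind it with PDS5, Pds5a fell by 0.44 in Stra8KO (SE 0.0448, adjusted p = 8.13e-12) and by 0.17 in Spo11KO (SE 0.042, adjusted p = 0.000553, not passed with total counts), Wapl fell by 0.17 in Stra8KO, and Cdca5 (sororin, which counteracts release) fell by 0.36 in Spo11KO. Pds5b was not called in either genotype. Among acetylation factors, Hdac8, the deacetylase that recycles SMC3, rose by 0.42 in Stra8KO (SE 0.119, adjusted p = 0.00323) and was -0.10 in Spo11KO without a call, and Esco2, an acetyltransferase of SMC3, rose by 0.14 in Spo11KO (adjusted p = 0.036) with overlapping libraries. Esco1, the other acetyltransferase, was not called.

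Espl1, the protease separase that opens the ring, fell by 0.20 in Stra8KO and by 0.34 in Spo11KO, and Pttg1, its inhibitor securin, rose by 0.39 in Spo11KO (SE 0.0913, adjusted p = 0.000331). Of the protectors, Sgo1 fell by 0.33 in Stra8KO (adjusted p = 0.013) and by 0.27 in Spo11KO (adjusted p = 0.00483, not passed with total counts), and Sgo2a, the shugoshin that guards REC8 at centromeres, fell by 0.35 in Spo11KO (SE 0.0593, adjusted p = 2.36e-06). Meikin, a meiosis-specific partner of shugoshin and PLK1, had 1 and 4 counts with vehicle and 0 and 4 with NRRA in Stra8KO, and 7 in both vehicle and 19 and 15 in the NRRA libraries of Spo11KO, too few for a call under NRRA in either genotype. Plk1, a kinase that helps strip cohesin in prophase, fell by 0.31 in Stra8KO and by 0.59 in Spo11KO (adjusted p = 0.000324 and 3.05e-12). Ctcf, the factor at which cohesin loops stop, fell by 0.27 in Spo11KO (adjusted p = 3.72e-05) and was 0.06 in Stra8KO.

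**Figure D5:**
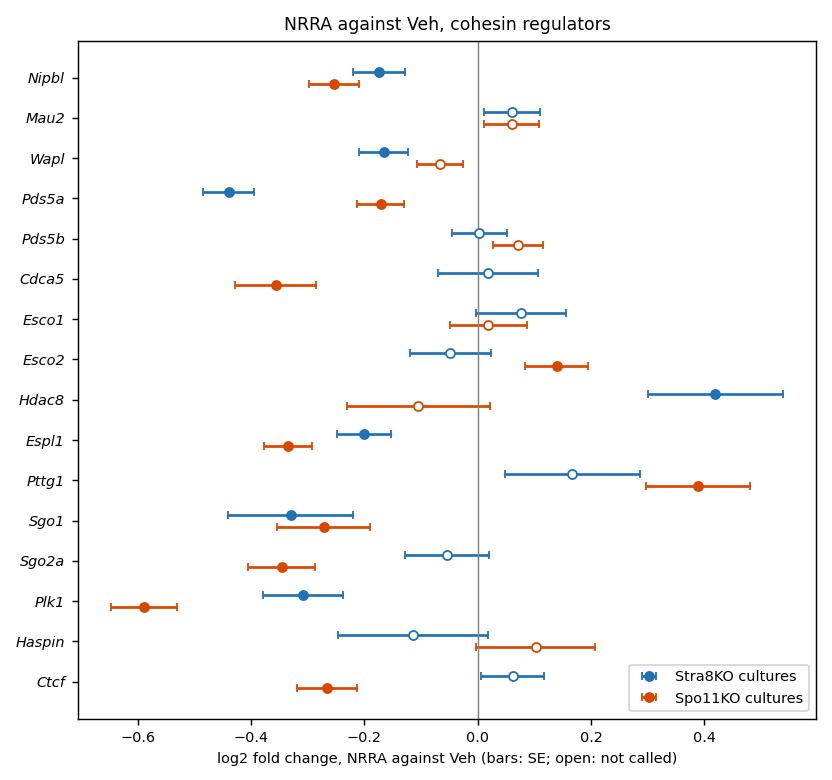
Log2 fold change of 16 cohesin regulators under NRRA against Veh (horizontal axis) in Stra8KO and Spo11KO cultures, with SE bars; filled points passed edgeR's test and open points did not. Plk1 (-0.31 and -0.59) and Pds5a (-0.44 and -0.17) were called lower in both, and Meikin, with at most 19 counts a library, is left out of the plot.

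Between the genotypes, 14 of the 17 regulators were called lower in Stra8KO in Veh and 13 under NRRA with TMM, where Hdac8 and Ctcf were called higher, whereas with pan-germ counts 9 were called higher in each medium and 0 and 2 lower. Over all tested genes 30.7% were called lower in Veh, and 28.9% lower and 35.0% higher under NRRA, with TMM. Of all calls made with pan-germ counts, 98.1% in Veh and 96.1% under NRRA were higher in Stra8KO. The NRRA effect differed between the genotypes for 6 regulators: Pds5a (-0.27), Cdca5 (0.37), Hdac8 (0.52), Sgo2a (0.29), Plk1 (0.28) and Ctcf (0.33). These 5 calls higher and 1 lower of 17 compare with 14.8% and 10.3% of all tested genes, and the balance turned to 1 higher and 4 lower with total counts and to 1 higher and 3 lower with pan-germ counts. Of all calls in this test 59.0% were higher with TMM, 38.7% with total counts and 41.1% with pan-germ counts. The differences of Pds5a and Ctcf passed with each of the 4 scalings tried, and those of Cdca5, Hdac8, Sgo2a and Plk1 did not pass with total counts or pan-germ counts.

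Condensin and the Smc5/6 complex are the other SMC complexes of the chromosome, without a meiotic paralog set of this kind. Of their 14 genes NRRA raised 1 and lowered 3 in Stra8KO and raised 3 and lowered 5 in Spo11KO (5 and 5 with total counts, and 0 and 12 and 0 and 8 in the genotypes with pan-germ counts). The shares of all tested genes with TMM were the 21.6% and 20.2% in Stra8KO and 24.5% and 25.5% in Spo11KO given above, so that the 3 of 14 lower in Stra8KO and the 3 of 14 higher in Spo11KO were near that background. Of all calls, 21.2% in Stra8KO and 29.2% in Spo11KO were higher with pan-germ counts, and 61.7% in Spo11KO with total counts. Ncaph, a condensin kleisin, fell by 0.27 in Stra8KO (SE 0.0653, adjusted p = 0.000631) and by 0.65 in Spo11KO (SE 0.0556, adjusted p = 2.59e-14). The NRRA effect differed between the genotypes for Ncapd2 (0.24), Ncaph (0.38), Ncaph2 (0.24) and Nsmce2 (0.30), all 4 called higher, where 14.8% of all tested genes were called higher and 10.3% lower. With total counts 1 of the 14 was called higher and 4 lower, and with pan-germ counts 1 higher and 1 lower. Of all calls 38.7% and 41.1% were then higher, against 59.0% with TMM. Only the difference of Ncaph passed with each of the 4 scalings.

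Across the 8 libraries, which share 4 group means, log2 CPM of Rec8 varied most like that of Stag3 among the members (Pearson r = 0.868, n = 8), and that of Rad21l most like Stag1 (r = 0.975). Smc1b varied more like Rad21 (r = 0.953) than like Stag3 (r = 0.788). Outside the set, of 12867 candidate genes, those closest to Rec8 were Nell2 (r = 0.992), Dlc1 (0.992) and Sept4 (0.989), and those closest to Stag3 were Ppm1e (0.997), Hivep3 (0.996) and Gnaz (0.996). Rad21l was closest to Rpa3 (0.998), Vangl2 and Fam222b (0.995 each), and Smc1b to Zranb1 (0.997), Nmt2 (0.995) and Myo9a (0.995). With 2 libraries in each of 4 groups these values describe the pattern of the group means and little else.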

How the data were processed

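Mouse RNA sequencing libraries (oligo-dT selected and stranded, per the study's methods) were analysed from 8 samples, 4 groups of 2, grouped by the genotype and treatment given in the labels. The deposited table held raw counts per gene for 55421 genes; per the submitters' processing notes, which name tools without their order, the authors used bcl2fastq, STAR 2.6.1c, featureCounts 1.6.4 and the mm10 genome. The settings for multi-mapping reads and strand were not given in the sources used here. Of the genes, 39921 had a count.

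Counts were fitted in edgeR 4.0.16 (R 4.3.3): filterByExpr (20588 genes kept, holding 99.88% of counts), TMM scaling, 1 group-means model over all 8 libraries, robust quasi-likelihood F tests and Benjamini-Hochberg adjustment over all tested genes, called at an adjusted p under 0.05. The study's methods name DESeq2, used here (1.42.0) as an alternative. Exon lengths came from GENCODE M21 (GRCm38, the build the notes call mm10), which held 99.52% of the gene IDs. Paralog shares were compared by exact permutation (36 arrangements). Intervals and floors cover the spread between these libraries or counting error only. Alternatives were other scalings (DESeq2 size factors, total counts, pan-germ counts), other filters, DESeq2, fits of only the compared libraries, a replicate block, other gene lengths for the shares and leaving out each library. The scripts were tested on simulated data.

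Members, gene lists, motifs and alternatives were chosen with earlier results of these data known. Named were the 9 subunits, Stra8, Spo11, the regulator list, at most 4 condensin or Smc5/6 genes, and for each meiotic subunit the 3 genes most correlated over the 8 libraries (log2 CPM, prior count 2, average log2 CPM of at least 1). Replicates within a group had a Spearman correlation of 0.994 to 0.995 and differed by more than sampling noise, so none was counted as a duplicate.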

Additional observations from a re-analysis of the deposited data

Results flagged for a closer look

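The effect of NRRA differed between the genotypes, by the interaction test of edgeR, for 5 subunits: on the log2 scale, and as the effect in Stra8KO minus that in the cultures labelled Spo11KO, by 1.30 for Rec8, -0.30 for Stag3, -0.84 for Smc1b, -0.22 for Rad21 and 0.24 for Smc3. The same test passed for 6 cohesin regulators, with differences of -0.27 for Pds5a, 0.37 for Cdca5, 0.52 for Hdac8, 0.29 for Sgo2a, 0.28 for Plk1 and 0.33 for Ctcf. Those of Cdca5, Hdac8, Sgo2a and Plk1 did not pass with total counts or pan-germ counts, and the split of regulators from 5 higher and 1 lower turned to 1 higher and 4 lower with total counts. It passed for 4 genes of condensin and Smc5/6, with 0.24 for Ncapd2, 0.38 for Ncaph, 0.24 for Ncaph2 and 0.30 for Nsmce2, of which only Ncaph passed with total counts and with pan-germ counts. Over all tested genes 14.8% were called higher and 10.3% lower in this test. The difference of Smc3 did not pass with total counts or pan-germ counts. The share of Rec8 among the alpha-kleisins was lower in both Stra8KO than in both Spo11KO libraries in Veh (-2.01 percentage points) and higher in both under NRRA (8.47 percentage points); this difference between the media was not tested. Groups of 2 libraries are too small for a test of outlying libraries.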

How the results depend on the processing

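Of 711 values for single subunits under the alternatives, 645 kept their direction and their side of the threshold, and of 237 counts of calls 228 stayed within 1.5 times the count reported, which compares totals and not directions. Pan-germ scaling gave most of the changes of sign. It turned the sign in Veh between genotypes for Rad21l (0.0272), Stag3 (0.37), Smc1b (0.12), Rad21 (0.34), Stag1 (0.31), Stag2 (0.92), Smc1a (0.79) and Smc3 (0.10), and under NRRA for Rec8 (0.70), Rad21l (0.0277), Rad21 (0.0324), Stag1 (0.12), Stag2 (0.72), Smc1a (0.83) and Smc3 (0.24). In the NRRA effect in Spo11KO it turned Rad21 (-0.0803) and Stag2 (-0.16). The counts of called subunits it moved were 4 mitotic for NRRA in Spo11KO, 2 meiotic between genotypes in each medium, and 1 mitotic for the interaction, where DESeq2 also gave 1. Near-equal totals hid a reversal between genotypes: the mitotic subunits went from 4 called lower to 4 called higher in Veh, and from 5 lower to 4 higher under NRRA. Small values that changed sign, none of them called after the change, were Stag1 with total counts (0.0146, NRRA in Spo11KO), the Rad21l interaction with total counts (-0.005) and without Stra8KO NRRA replicate 2 (-0.0684, to 0.2244 without replicate 1), Stag2 for NRRA in Spo11KO with only the libraries compared (-2e-04) and without Spo11KO Veh replicate 1 (-0.0408) or NRRA replicate 2 (-0.084, to 0.057 without NRRA replicate 1). For NRRA in Stra8KO, leaving out NRRA replicate 1 or 2 gave 0.0387 and -0.2538 for Rad21l, and -0.2299 and 0.0203 for Smc1b, of which that at -0.2299 passed the test. Leaving out each library in turn gave 1 to 5 called mitotic subunits for NRRA in Stra8KO (1 without Stra8KO Veh replicate 1 or NRRA replicate 2), 3 to 5 between genotypes under NRRA (3 without Stra8KO NRRA replicate 2) and 1 to 3 for the interaction (1 without Spo11KO NRRA replicate 1); the lone library left in a group was assumed to vary like the others. The split of all calls moved with scaling: the share called higher for NRRA was 51.7% in Stra8KO (21.2% with pan-germ counts) and 49.0% in Spo11KO (29.2% with pan-germ counts, 61.7% with total counts), for genotypes under NRRA 54.8% (39.5% with total counts), and for the interaction 59.0% (41.1% with pan-germ counts, 38.7% with total counts, 45.9% with no filter).

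Raw counts in place of counts per kilobase moved the share differences to 16.4 (Rec8, NRRA minus Veh), -0.581 (Rad21l, NRRA minus Veh), -0.327 (Rad21l, between genotypes) and -19.4 points (Smc1b, between genotypes), the longest coding transcript gave 24.5 for Rec8, and coding length gave 17.3, -0.688, -0.375 and -19.4 for the same 4. Correlations of same-numbered deviations ran from -0.217 to 0.346 over 6936 genes. The highest, 0.346, was that of Spo11KO Veh with Spo11KO NRRA, and that of Stra8KO Veh with Stra8KO NRRA was 0.0319. Whether the replicate numbers paired the Spo11KO libraries is thus not settled. With the replicate block the subunits called stayed at 2 meiotic and 4 mitotic (NRRA in Stra8KO), 3 and 2 (NRRA in Spo11KO), 4 and 4 (genotypes in Veh), 4 and 5 (genotypes under NRRA) and 3 and 2 (interaction), and all calls went from 8619 to 8542, 10279 to 10215, 12826 to 12765, 13170 to 13109 and 5172 to 5140. Rad21l and Rec8 in Veh rest on 67 to 314 counts a library, which limits how small a change could be seen.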
